A study of Homo sapiens with 27 samples.

Results

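Immediate early genes and the feedback genes of mitogen-activated protein kinase (MAPK) signalling were followed as 10 members of the 20987 genes measured, 5 of each kind. They were taken by symbol from the table of normalised counts: EGR1, FOS, JUN, JUNB and IER2 as immediate early genes, and DUSP1, DUSP4, DUSP6, SPRY2 and SPRY4 as feedback genes. Messenger RNA was sequenced in 27 libraries from LNCaP95, 22Rv1 and LNCaP, which are human prostate cancer cell lines. LNCaP95, a derivative of LNCaP, and 22Rv1 are labelled castration resistant and LNCaP is labelled androgen sensitive. Cells of every line were given the vehicle DMSO, 100 nM IPI-9119 or 500 nM IPI-9119 for 6 days in medium that was not replaced, which makes 9 groups of 3 libraries. Cells were pelleted together with their conditioned medium, so detached cells are in the RNA too. IPI-9119 is an inhibitor of the palmitate-making enzyme fatty acid synthase (FASN).

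Immediate early genes are switched on within minutes of a growth factor, serum or stress signal, without the need for new protein synthesis, and their transcripts decay fast. Much of that signal runs through RAS, RAF, MEK and ERK, whose targets include transcription factors that bind the serum response element. The same pathway induces its own brakes: dual-specificity phosphatases (DUSP) remove phosphate from MAP kinases, and Sprouty proteins (SPRY) restrain signalling from receptor tyrosine kinases. In prostate cancer cells both groups are read as outputs of growth factor and stress signalling. A library taken after 6 days shows the level at that time and not the burst that gives the early genes their name.

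The upstream sequence of EGR1, FOS, JUN and IER2, the members that fell together in 22Rv1, and of JUNB and DUSP1, which did not pass there, is shown so that the letters near their starts can be compared. The RefSeq promoter table (GRCh38.p14) held windows for 9 of the 10 members, each of 300 bases from 250 before to 50 after an annotated start, with 3 windows for SPRY2. The 200 bases just before the start are printed, 5′ to 3′ on the gene's own strand. They lie at chr5:138465279-138465478 (plus strand) for EGR1, chr14:75278628-75278827 (plus) for FOS, chr1:58784048-58784247 (minus) for JUN, chr19:12791286-12791485 (plus) for JUNB, chr19:13150211-13150410 (plus) for IER2 and chr5:172771196-172771395 (minus) for DUSP1. Capitals mark matches on either strand to the CArG box bound by serum response factor, to the CRE core TGACG and the full CRE TGACGTCA bound by CREB and ATF proteins, and to the ETS core CCGGAA.
EGR1: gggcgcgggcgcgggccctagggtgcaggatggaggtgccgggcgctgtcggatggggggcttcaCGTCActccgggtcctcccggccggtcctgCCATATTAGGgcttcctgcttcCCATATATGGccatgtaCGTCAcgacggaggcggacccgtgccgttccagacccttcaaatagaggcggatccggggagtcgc
FOS: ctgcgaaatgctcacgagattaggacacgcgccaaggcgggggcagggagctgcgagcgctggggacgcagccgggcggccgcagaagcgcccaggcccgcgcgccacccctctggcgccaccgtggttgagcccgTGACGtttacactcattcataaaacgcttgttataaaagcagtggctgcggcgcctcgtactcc
JUN: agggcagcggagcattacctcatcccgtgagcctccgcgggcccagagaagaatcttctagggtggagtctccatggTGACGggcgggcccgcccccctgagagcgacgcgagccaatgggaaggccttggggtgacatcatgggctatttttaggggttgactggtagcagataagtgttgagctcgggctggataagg
JUNB: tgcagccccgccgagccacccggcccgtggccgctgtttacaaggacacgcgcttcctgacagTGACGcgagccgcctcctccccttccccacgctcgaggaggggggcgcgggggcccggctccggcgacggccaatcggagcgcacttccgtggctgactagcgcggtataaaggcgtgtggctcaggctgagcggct
IER2: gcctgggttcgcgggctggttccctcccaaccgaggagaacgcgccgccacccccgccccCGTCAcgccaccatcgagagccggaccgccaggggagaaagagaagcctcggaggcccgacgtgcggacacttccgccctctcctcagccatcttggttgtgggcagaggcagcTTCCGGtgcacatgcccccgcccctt
DUSP1: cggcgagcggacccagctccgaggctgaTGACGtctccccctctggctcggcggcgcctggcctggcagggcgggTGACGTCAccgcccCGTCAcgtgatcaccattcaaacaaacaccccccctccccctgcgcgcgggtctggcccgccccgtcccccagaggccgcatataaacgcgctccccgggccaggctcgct

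EGR1 held 2 CArG boxes, at positions -105 to -96 and -83 to -74 counted from the annotated start, and was the 1 member of 9 with a match. Of all 35116 windows in the table, 1.29% held one. TGACG was found in 8 of the 9 members and in 24.6% of all windows. DUSP1 held the full CRE at -125 to -118, which contains TGACG on both strands and so overlaps with it, and 1.85% of all windows held the full CRE. The ETS core was present in IER2 and SPRY2 and in 17.2% of all windows. The AP-1 site, TGACTCA or TGAGTCA on either strand, was found in 0 of the 9 members and in 4.95% of all windows. The members are counted by gene, over any of their windows. Counted so, 438 of 27305 genes held a CArG box, 7761 held TGACG and 614 held the full CRE. The ETS core was in 5487 genes and the AP-1 site in 1651. The window of DUSP6 held none of these motifs. The windows reach 250 bases upstream and no farther, and a match is a stretch of letters, not a bound site.

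**Figure D1:**
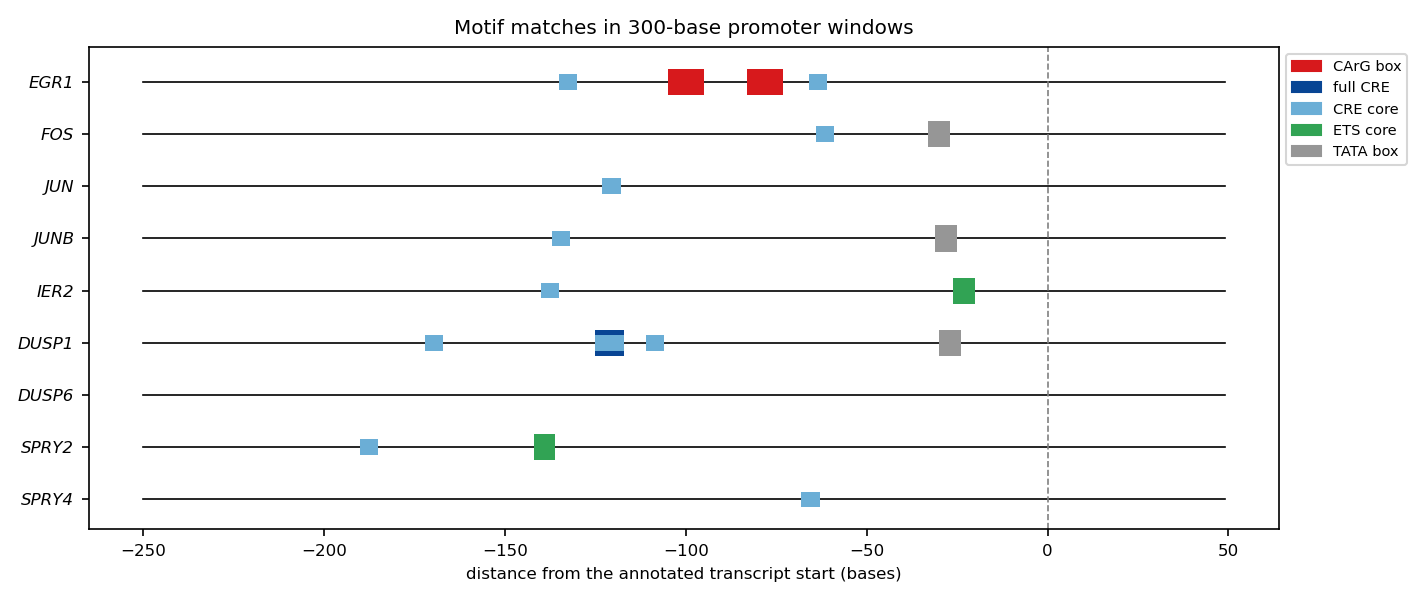
Motif matches in the first promoter window of each of 9 genes, by distance in bases from the annotated transcript start; each coloured block is 1 match on either strand (CRE core: TGACG, TATA box: TATAAA). EGR1 carries the 2 CArG boxes and DUSP1 the full CRE.

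Values are the deposited normalised read counts. Fold changes are log2 differences of group means on the log2(value + 1) scale with their standard error, and a gene is said to have risen or fallen, or is called, where limma gave a Benjamini-Hochberg adjusted p under 0.05 over all genes tested. Libraries held 14757874 to 26578881 reads in genes. Nothing in the labels says that the replicates were separate cultures, so p-values cover library-to-library spread, some or all of it possibly technical. All 10 luminal prostate markers had mean values of 10 or more in every group, and their changes are given line by line. Of 6 leukocyte markers, none reached that mean in LNCaP or 22Rv1 and PTPRC alone did in LNCaP95 (65.4 to 139), and the LNCaP libraries had VWF at 197 to 376. Some libraries stood apart. LNCaP DMSO replicate 1 was the lowest of its group for EGR1, FOS, JUN and DUSP1, and DMSO replicate 2 the highest. In 22Rv1, DMSO replicate 3 had 18444 genes above 0, the most of all libraries. The LNCaP95 replicate 2 libraries had 7.56% (100 nM) and 6.92% (500 nM) of their reads in 13 mitochondrially encoded genes, the highest shares of the 27.

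**Figure D2:**
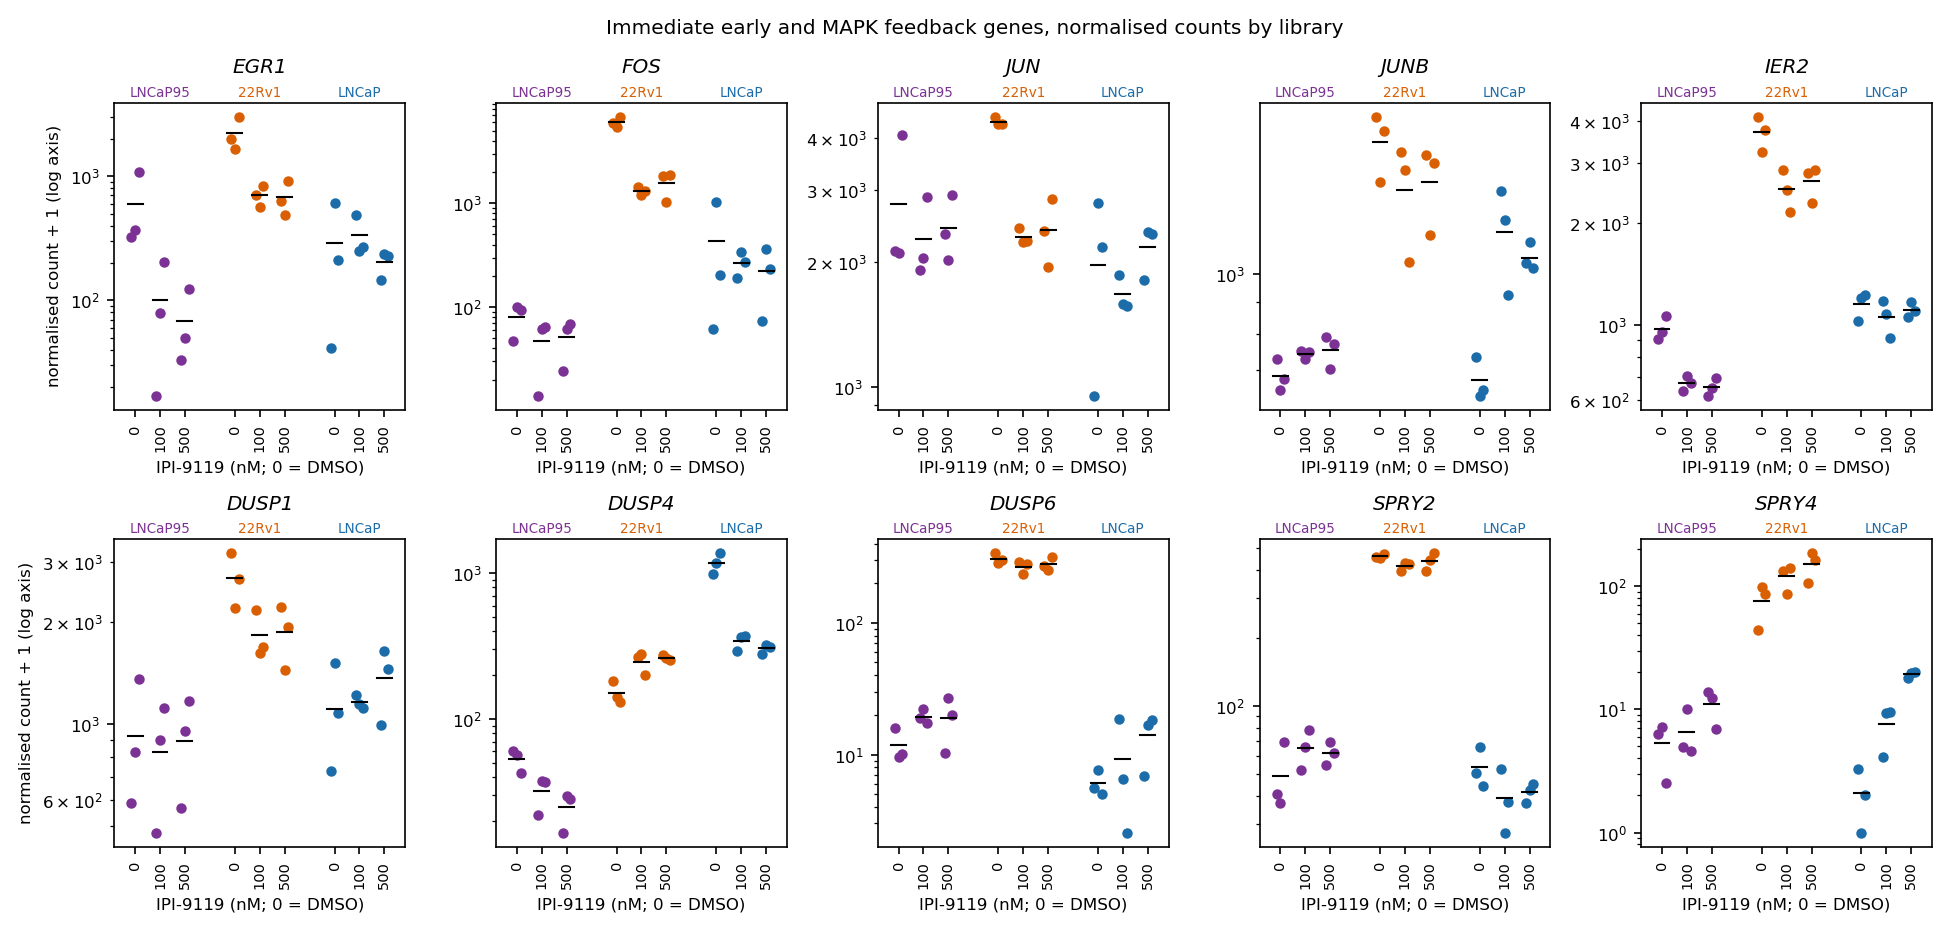
Normalised count + 1 (log axis) of each gene in each of the 27 libraries, by line and by IPI-9119 dose (0 is DMSO); points are libraries in replicate order and bars are group means. FOS in the DMSO libraries of 22Rv1 lies at 5430 to 6804, above every other FOS value, and DUSP4 in the DMSO libraries of LNCaP lies at 981 to 1370.

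Under DMSO the 3 lines differed widely in these genes. Of the 3 lines, 22Rv1 carried the highest level of 9 members, all but DUSP4, and LNCaP the highest level of DUSP4. Per kilobase of transcript, FOS led in 22Rv1 at 2807 ± 322 normalised counts, ahead of DUSP1 and IER2, while JUN led in LNCaP95 (783 ± 320) and in LNCaP (556 ± 265; SD, n = 3 each). In LNCaP the lead was well within the spread, with DUSP1 at 547 ± 195. In LNCaP95 DUSP1 followed at 457 ± 194, and the ranges of mean ± SD overlapped. The order behind FOS in 22Rv1 was within the spread of DUSP1, with DUSP1 at 1329 ± 247, IER2 at 1262 ± 150 and JUN at 1237 ± 30.5. SPRY4 was the lowest member per kilobase in every line.

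FOS, which pairs with JUN proteins in the transcription factor AP-1, had 5939.7, 5430.3 and 6804 normalised counts in 22Rv1 DMSO libraries, against 60.0, 1026 and 204 in LNCaP DMSO libraries. The groups did not overlap, and the log2 difference was 4.69 ± 0.70 (limma adjusted p = 1.66e-06). LNCaP95 had 45.8, 99.4 and 91.8, below all 22Rv1 libraries (log2 difference -6.31 ± 0.70, limma adjusted p = 1.30e-08). EGR1, a zinc finger transcription factor, had 1979.5, 1661 and 3019 in 22Rv1, against 40.4, 609.6 and 209.9 in LNCaP, so that the highest LNCaP library was below the lowest 22Rv1 library. DUSP6, SPRY2, SPRY4 and DUSP1 among the feedback genes were highest in 22Rv1 too. DUSP6, a cytoplasmic phosphatase selective for ERK, had 337, 283 and 299 in 22Rv1, against 4.62, 6.64 and 4.0 in LNCaP, a log2 difference of 5.68 ± 0.47 (limma adjusted p = 6.48e-11). SPRY2 averaged 459 ± 10.3 in 22Rv1 and 52.4 ± 11 in LNCaP (SD, n = 3 each). DUSP4, a nuclear phosphatase of ERK, JNK and p38 kinases, went the other way, with 181, 139.6 and 131 in 22Rv1, against 981, 1176 and 1370.2 in LNCaP.

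Between 22Rv1 and LNCaP limma called all 10 members, 9 higher and 1 lower in 22Rv1, where 74.8% of 14026 genes tested were called, 39.3% higher and 35.5% lower. Between LNCaP95 and 22Rv1 it called all 10, each lower in LNCaP95, where 76.1% of genes were called, 35.4% higher and 40.8% lower. SPRY4 and DUSP6 passed the filter of 10 or more in at least 3 DMSO libraries only through 22Rv1. Their calls between untreated lines therefore do not count toward a share set beside all genes. Between LNCaP95 and LNCaP limma called 3, where 66.5% of genes were called, 34% higher and 32.5% lower. These were DUSP4, with 59.0, 55.6 and 41.7 in LNCaP95 and a log2 difference of -4.47 ± 0.22, FOS (-1.63 ± 0.70, limma adjusted p = 0.0436) and SPRY4 (1.37 ± 0.46, limma adjusted p = 0.0115), the last of which had at most 6.26 normalised counts in these libraries. FOS was at -0.56 (limma adjusted p = 0.451) without LNCaP DMSO replicate 2, and FOS and SPRY4 lost their calls under 7 and 5 alternatives (limma adjusted p 0.0572 to 0.451 for FOS, limma or edgeR adjusted p 0.0511 to 0.102 for SPRY4). Scaling every library to the same total moved the median log2 difference of all genes to 0.21 for LNCaP95 and LNCaP, against 0.007 as deposited, and to 0.074 for LNCaP95 and 22Rv1, against -0.066. In LNCaP95 against 22Rv1, JUN lost its call under that scaling (-0.59, limma adjusted p = 0.0614), without LNCaP95 DMSO replicate 1 or 2 and with the DMSO libraries fitted alone (up to 0.0918), and EGR1 without 22Rv1 DMSO replicate 3 or without LNCaP95 DMSO replicate 1 or 2 (limma adjusted p 0.0512 to 0.0635). With the lines grown as separate cultures, line and culture cannot be told apart, nor can fewer expressing cells and less RNA per cell in any of these bulk libraries.

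**Figure D3:**
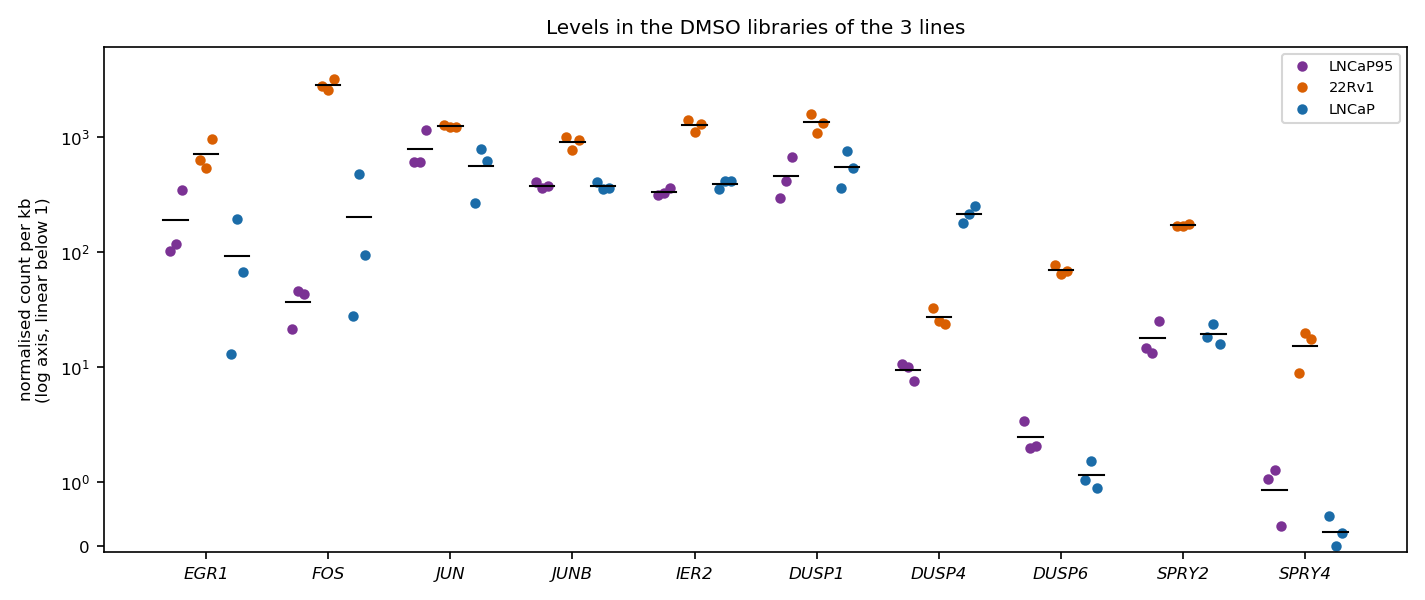
Normalised counts per kilobase of transcript in the DMSO libraries of LNCaP95, 22Rv1 and LNCaP (n = 3 each; log axis, linear below 1); points are libraries and bars are means. 22Rv1 is highest for every gene but DUSP4, which is highest in LNCaP.

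In 22Rv1, 4 of the 5 immediate early genes fell and 1 of the 5 feedback genes rose at 500 nM IPI-9119. The falls were in EGR1, FOS, JUN and IER2, and the rise was in DUSP4. EGR1 had 629.9, 489.6 and 922 normalised counts in the 500 nM libraries, against 1979.5, 1661 and 3019 in the DMSO libraries, and the groups did not overlap. It fell by 1.71 ± 0.25 on the log2 scale (limma adjusted p = 0.00189).

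FOS had 1813, 1037 and 1884 in the 500 nM libraries, against 5939.7, 5430.3 and 6804 in the DMSO libraries. The highest treated library was below the lowest DMSO library by a wide margin, and FOS fell by 1.98 ± 0.19 on the log2 scale (limma adjusted p = 0.000138). The lowest 500 nM library still lay just above the highest FOS value of the other lines, 1026 in LNCaP DMSO replicate 2. JUN, the AP-1 subunit phosphorylated by JNK, had 2376, 1949 and 2853 with 500 nM, against 4504, 4318 and 4317 with DMSO, and fell by 0.89 ± 0.12 on the log2 scale (limma adjusted p = 0.00127). Its DMSO libraries were close together and the treated ones more spread, with no overlap between the groups. IER2, a short nuclear protein of the immediate early response, had 2794, 2288 and 2858 with 500 nM, against 4110.5, 3237 and 3757 with DMSO. It fell by 0.48 ± 0.13 on the log2 scale (limma adjusted p = 0.0453).

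JUNB, an AP-1 subunit that can restrain JUN, had 1549, 1153 and 1507 with 500 nM, against 1788, 1405 and 1696 with DMSO, and these groups overlapped (log2 fold change -0.22 ± 0.16, limma adjusted p = 0.467). Among the feedback genes, DUSP4 had 274, 263 and 252 with 500 nM, against 181, 139.6 and 131 with DMSO. It rose by 0.82 ± 0.16 on the log2 scale (limma adjusted p = 0.0117), with no overlap between the groups. SPRY4 had 106, 185 and 162 with 500 nM, against 43.5, 97.5 and 85.6 with DMSO, and did not pass (log2 fold change 1.03 ± 0.31, limma adjusted p = 0.0651). DUSP1, the nuclear phosphatase of p38, JNK and ERK that is itself an immediate early gene, had 2216, 1442 and 1936 with 500 nM, against 3187, 2191 and 2673 with DMSO (log2 fold change -0.53 ± 0.17, limma adjusted p = 0.0902). DUSP6 (-0.15 ± 0.14) and SPRY2 (-0.071 ± 0.11) were not called, and both groups of each overlapped.

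The 5 calls at 500 nM compare with 6.97% of 13563 genes called in this line, 3.47% higher and 3.5% lower. At 100 nM the calls fell on the same 5 members with the same directions, where 6.55% of genes were called (3.19% higher, 3.36% lower), against the same 3 DMSO libraries: FOS was at -2.20 ± 0.19, EGR1 at -1.64 ± 0.25, JUN at -0.93 ± 0.12, IER2 at -0.57 ± 0.13 and DUSP4 at 0.71 ± 0.16 on the log2 scale. With all 27 libraries in 1 fit, which gives each gene 1 spread for all lines, EGR1 (limma adjusted p = 0.162) and FOS (0.0793) lost their calls at 500 nM, and both did at 100 nM. IER2 lost its call at 500 nM without any 1 of the 6 libraries compared and with no filter on low values (limma adjusted p 0.0529 to 0.185), and DUSP4 without DMSO replicate 2 or 3 or 500 nM replicate 1 or 2 (0.0509 to 0.0572). At 100 nM, IER2 lost its call without DMSO replicate 1 or 3 (0.0654 and 0.0849), and DUSP4 without DMSO replicate 2 or 3 or 100 nM replicate 1 or 2 (0.0538 to 0.116). DUSP1 was called at both doses by DESeq2 and at equal totals, and SPRY4 at 500 nM by DESeq2 (1.0, DESeq2 adjusted p = 0.0169). At 500 nM DESeq2 called 7 members and 1376 of all genes, against 946 of all genes by limma. Replicate 2 was the lowest library for EGR1, FOS and DUSP1 with 500 nM and with DMSO alike. The 9 heat shock genes summed to 138700 to 158490 normalised counts with 500 nM, against 88289 to 119550 with DMSO, and 2 of 8 tested rose, HSPA8 (0.82 ± 0.15) and DNAJB1 (0.43 ± 0.12). Mitochondrial reads were 3.38 to 4.11% with 500 nM, against 2.50 to 3.12% with DMSO, and depth overlapped. The luminal marker KLK3 fell (-0.51 ± 0.14). At equal totals 26.6% of the genes called at 500 nM were higher, against 49.8% as deposited.

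In LNCaP95, EGR1, IER2 and DUSP4 fell at 500 nM and no member rose in the main fit. The fall of EGR1 was the largest called for a member in any line. It had 32.3, 48.4 and 121 normalised counts in the 500 nM libraries, against 320.5, 369 and 1086 in the DMSO libraries, and every treated library was below every DMSO library. It fell by 3.11 ± 0.73 on the log2 scale (limma adjusted p = 0.00299). Within each group replicate 1 was lowest and replicate 3 highest, and the same-numbered pairs fell by 9.91, 7.64 and 8.96 times. IER2 had 614, 651 and 695 with 500 nM, against 908, 947 and 1059.5 with DMSO, with little spread in either group. It fell by 0.57 ± 0.083 on the log2 scale (limma adjusted p = 8.49e-05). DUSP4 had 15.7, 28.8 and 27.3 with 500 nM, against 59.0, 55.6 and 41.7 with DMSO, and fell by 1.12 ± 0.29 on the log2 scale (limma adjusted p = 0.0055).

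None of the AP-1 members FOS, JUN and JUNB was called in LNCaP95 by the main fit, which does not use replicate number. With replicate number as a block, FOS passed at 500 nM, and FOS and JUN passed at 100 nM. JUN had 2347, 2019.6 and 2911 with 500 nM, against 2127, 2109 and 4077 with DMSO, with replicate 3 highest in both groups. JUNB averaged 754 ± 46.6 with 500 nM and 684 ± 40.8 with DMSO (SD, n = 3 each). FOS had 23.1, 60.7 and 67.7 with 500 nM, against 45.8, 99.4 and 91.8 with DMSO, and these groups overlapped. It was not called (log2 fold change -0.70 ± 0.54, limma adjusted p = 0.298), but passed once replicate number entered the fit as a block (limma adjusted p = 0.0126). FOS was lower in all 3 same-numbered pairs. DUSP1 spread from 564 to 1166 with 500 nM and from 586 to 1353 with DMSO. DUSP6 had 9.23, 25.7 and 19.0 with 500 nM, against 15, 8.61 and 9.11 with DMSO (log2 fold change 0.61 ± 0.37, limma adjusted p = 0.189). SPRY2 was at 0.38 ± 0.24 (limma adjusted p = 0.2) and was called without DMSO replicate 3 (0.66, limma adjusted p = 0.0267). DUSP6 was called without 500 nM replicate 1 (1.0, limma adjusted p = 0.0316). With DMSO it reached 10 in replicate 1 alone, so it entered the tests in this line through its treated libraries. SPRY4, at 1.52 to 12.9 normalised counts in the 9 libraries, did not pass the filter on low values and was not tested in this line.

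In the main fit, 3 of 9 tested members were called at 500 nM. Of 12844 genes tested in LNCaP95, 52.3% were called, 28.2% higher and 24.1% lower, so the share of members called was below that of all genes. At 100 nM the same 3 genes were called, where again 52.3% of genes were: EGR1 at -2.96 ± 0.73, IER2 at -0.53 ± 0.083 and DUSP4 at -0.75 ± 0.29 on the log2 scale. With the replicate number as a block, 5 of 9 members were called at 100 nM, FOS (-0.99, blocked limma adjusted p = 0.0012) and JUN (-0.23, blocked limma adjusted p = 0.0365) in addition, and 7840 of all 12844 genes were called in that fit. DUSP4 at 100 nM lost its call with no filter on low values or without DMSO replicate 1 or 2 or 100 nM replicate 1 (limma adjusted p 0.0747 to 0.189). The heat shock genes summed to 98166 to 109730 with 500 nM, against 120920 to 140040 with DMSO, and 6 of 9 tested fell, among them HSPB1 (-0.87 ± 0.11), HSP90AA1 (-0.65 ± 0.11) and HSPH1 (-0.52 ± 0.12). Of 10 luminal markers 5 rose and 1 fell, the rises led by STEAP2 (1.10 ± 0.084), FOLH1 (0.58 ± 0.082) and KLK3 (0.61 ± 0.14). The fibroblast markers summed to 1518 to 2029 with 500 nM, against 1825 to 2265 with DMSO, with LUM at 780 to 1548 over the line, and 0 of 4 tested were called. Mitochondrial reads were 1.99 to 6.92% with 500 nM, against 1.78 to 3.19% with DMSO, and every 500 nM library was shallower than every DMSO library.

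In LNCaP, JUNB rose and DUSP4 fell at 500 nM, and SPRY4, near 0 with DMSO, was called higher on few reads. DUSP4 had 280.2, 321 and 312 normalised counts in the 500 nM libraries, against 981, 1176 and 1370.2 in the DMSO libraries, a gap several times the spread within either group. It fell by 1.93 ± 0.14 on the log2 scale (limma adjusted p = 1.31e-05), by 3.50 to 4.39 times in the 3 same-numbered pairs. JUNB had 1039, 1123 and 1020.2 with 500 nM, against 735, 635 and 649.6 with DMSO, and the groups did not overlap. It rose by 0.66 ± 0.13 on the log2 scale (limma adjusted p = 0.00538). JUNB overlaps HOOK2 on the other strand, and the strand setting of the counting is not given, so reads of the pair cannot be told apart for certain. The same limit holds for IER2, DUSP1, DUSP6 and SPRY4, which overlap genes on the other strand that have no values of their own here. SPRY4 had 16.8, 18.8 and 19.0 with 500 nM, against 2.31, 0 and 0.999 with DMSO. The DMSO libraries held 3 reads of it in all, against 67 with 500 nM, a ratio of 17.8 per unit of depth (95% exact interval 5.82 to 88.3, counting error only). Its fitted log2 fold change was 3.35 ± 0.54 (limma adjusted p = 0.00164), which depends on the pseudocount of 1. SPRY4 passed the filter only through its 500 nM libraries, since no other LNCaP library reached 10. With no filter the limma adjusted p was 0.00106, and without any 1 of the 500 nM libraries it was not tested.

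EGR1, FOS, JUN and DUSP1 were not called in LNCaP, and their DMSO libraries spread widely. EGR1 had 144, 237 and 228 with 500 nM, against 40.4, 609.6 and 209.9 with DMSO, so that DMSO libraries lay both below and above all treated ones. FOS had 72.4, 363 and 231 with 500 nM, against 60.0, 1026 and 204 with DMSO, with replicate 1 lowest and replicate 2 highest in both groups. Their log2 fold changes were 0.19 ± 0.72 (limma adjusted p = 0.881) and -0.35 ± 0.83 (limma adjusted p = 0.801). Without DMSO replicate 1 EGR1 was at -0.85, and without DMSO replicate 2 FOS was at 0.72, each of the other sign. JUN had 1814, 2367 and 2339 with 500 nM, against 948, 2787 and 2173 with DMSO, and DUSP1 had 996, 1637 and 1456 with 500 nM, against 725, 1511 and 1079 with DMSO. IER2 was not called either, at 1105 ± 57.4 with 500 nM and 1146 ± 109 with DMSO (SD, n = 3 each). DUSP6 had 5.89, 15.7 and 17.4 with 500 nM, against 4.62, 6.64 and 4.0 with DMSO, and SPRY2 averaged 40.5 ± 3.94 with 500 nM and 52.4 ± 11 with DMSO. Neither was called.

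JUNB and DUSP4 were the calls at 500 nM apart from SPRY4, where 20.8% of 12837 genes were called, 11% higher and 9.83% lower. SPRY4 entered the tests at both doses only through its 500 nM libraries, so its calls do not count toward a share set beside all genes. At 100 nM the same 3 genes were called in the same directions, where 25.3% of genes were called (13.7% higher, 11.6% lower): DUSP4 at -1.77 ± 0.14, JUNB at 0.78 ± 0.13 and SPRY4 at 1.93 ± 0.54 on the log2 scale, the last from 20 reads with 100 nM and the same 3 with DMSO (ratio 6.55, 95% exact interval 1.94 to 34.4). SPRY4 at 100 nM lost its call without DMSO replicate 2 or 3 or 100 nM replicate 2 or 3 (limma adjusted p 0.0567 to 0.0863). JUN at 100 nM was at -0.10 ± 0.30 and was called without DMSO replicate 1 (-0.56, limma adjusted p = 0.00998). At equal totals 68.9% of the genes called at 500 nM were higher, against 52.8% as deposited, and at 100 nM 65.7%, against 54.3%. The heat shock genes summed to 165320 to 177620 with 500 nM, against 150520 to 170560 with DMSO, and 2 of 9 tested rose. Of 10 luminal markers 5 fell and 1 rose, the falls led by KLK3 (-1.94 ± 0.20), TMPRSS2 (-1.24 ± 0.18) and KLK2 (-1.62 ± 0.25). The 6 fibroblast markers summed to 440 to 622 with 500 nM, against 276 to 320 with DMSO, and 2 of the 3 tested rose. COL3A1 averaged 142 ± 25.9 with 500 nM and 17.5 ± 0.479 with DMSO, and COL1A1 averaged 395 ± 78.1 with 500 nM and 271 ± 22.6 with DMSO (SD, n = 3 each), while COL1A2 and DCN were at 0 in all 9 libraries of the line. The 6 endothelial markers, of which VWF alone had a mean of 10 or more, summed to 359 to 371 with 500 nM, against 199.9 to 323 with DMSO. Mitochondrial reads were 2.19 to 4.45% with 500 nM, against 1.69 to 2.86% with DMSO, and every 500 nM library was deeper than every DMSO library.

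**Figure D4:**
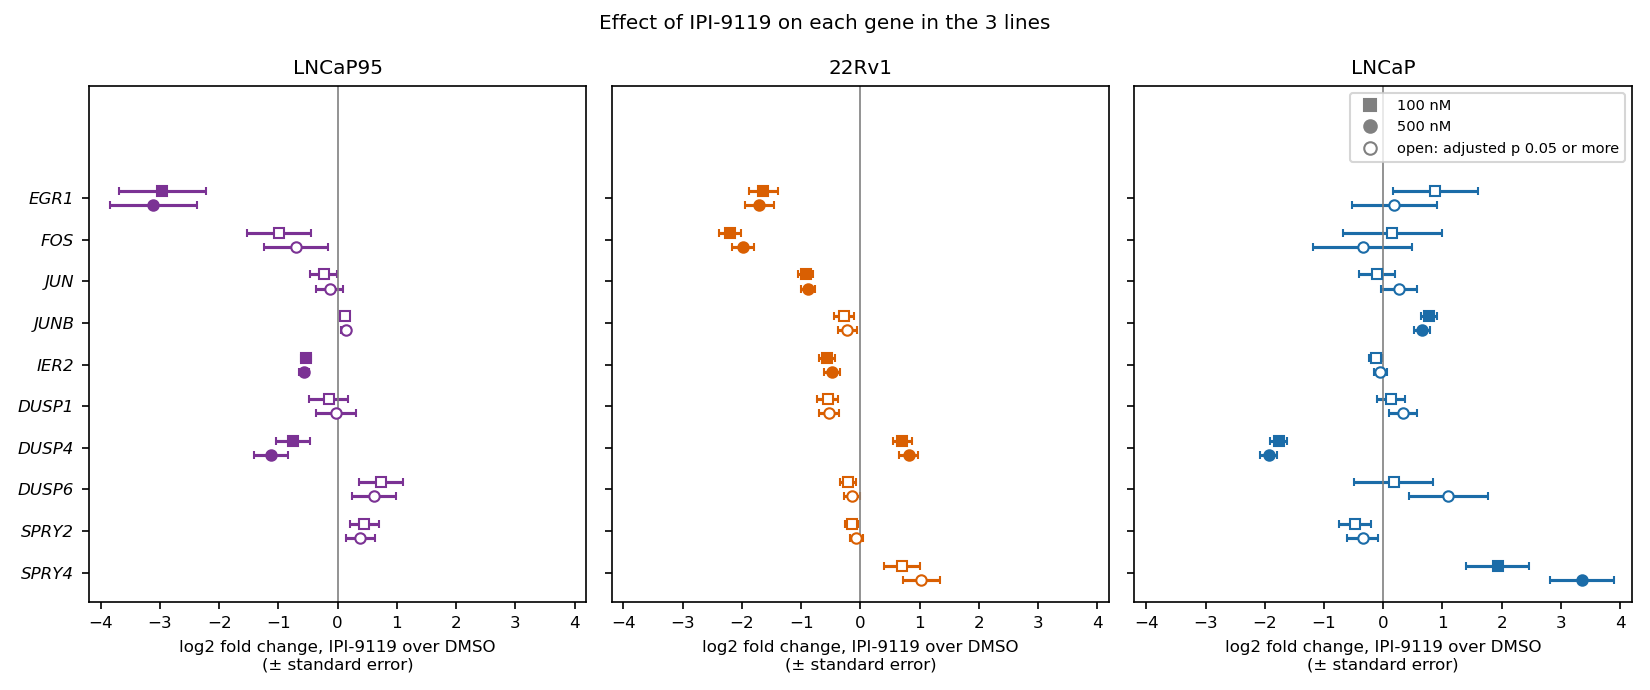
Log2 fold change of IPI-9119 over DMSO with its standard error for each gene, by line, at 100 nM (squares) and 500 nM (circles); filled symbols passed an adjusted p under 0.05 in limma, and SPRY4 was not tested in LNCaP95. EGR1 is left of 0 in LNCaP95 and 22Rv1, and DUSP4 is right of 0 in 22Rv1 alone.

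Few genes were called between the doses. Limma called 0 members between 500 nM and 100 nM in LNCaP95, 22Rv1 or LNCaP, where it called 0, 0 and 1 of all genes (0%, 0% and 0.00779%). At an unadjusted p under 0.05 the counts were 95, 152 and 1463 genes, while edgeR called 0, 0 and 1 and DESeq2 0, 0 and 93. With LNCaP replicates 2 and 3 only, JUN was the 1 member called in that line, where 755 genes in all were. SPRY4 in LNCaP had 2.31, 0 and 0.999 with DMSO, 3.09, 8.36 and 8.56 with 100 nM and 16.8, 18.8 and 19.0 with 500 nM. The 3 groups did not overlap, and the step between the doses was not called. In the other line where SPRY4 was tested, 22Rv1, the means were 75.5 ± 28.4, 119 ± 29.4 and 151 ± 40.6 with DMSO, 100 nM and 500 nM (SD, n = 3 each).

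Whether the lines differed in their 500 nM response was tested as a difference of effects over all 27 libraries. DUSP4 differed between every pair of lines. Its effect in 22Rv1 exceeded that in LNCaP by 2.75 ± 0.31 on the log2 scale (limma adjusted p = 1.21e-06), and the effect in LNCaP95 minus that in 22Rv1 was -1.94 ± 0.31 (limma adjusted p = 9.11e-05). Between LNCaP95 and LNCaP, in both of which it fell, the difference was 0.81 ± 0.31 (limma adjusted p = 0.0372). The JUNB effect was lower in LNCaP95 (-0.52 ± 0.20, limma adjusted p = 0.0408) and in 22Rv1 (-0.88 ± 0.20, limma adjusted p = 0.0039) than in LNCaP. EGR1 (-3.30 ± 1.04, limma adjusted p = 0.0142) and IER2 (-0.52 ± 0.16, limma adjusted p = 0.013) differed between LNCaP95 and LNCaP, and JUN (-1.16 ± 0.38, limma adjusted p = 0.0412) between 22Rv1 and LNCaP.

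Of 9 members tested, 4 differed between LNCaP95 and LNCaP, where 38.9% of 11761 genes did (19.8% higher, 19.1% lower), 3 between 22Rv1 and LNCaP, where 14.3% did (6.79% higher, 7.52% lower), and 1 between LNCaP95 and 22Rv1, where 25.4% did (13% higher, 12.4% lower). The fall of EGR1 in LNCaP95 and in 22Rv1 was not shown to differ in size (-1.40 ± 1.04, limma adjusted p = 0.342), nor was the FOS effect in 22Rv1 shown to differ from that in LNCaP (-1.63 ± 0.98, limma adjusted p = 0.29). That FOS difference was -2.70 and called without LNCaP DMSO replicate 2 (limma adjusted p = 0.0338), and -0.66 without LNCaP DMSO replicate 1. Scaled to equal totals, 21.4% of the genes that differed between 22Rv1 and LNCaP were higher, against 47.4% as deposited, and the median of all genes was -0.14, against 0.014. The same share was 39.5%, against 50.9%, for LNCaP95 and LNCaP and 61.6%, against 51.2%, for LNCaP95 and 22Rv1. Without LNCaP DMSO replicate 1, which was low in EGR1, the EGR1 difference between LNCaP95 and LNCaP was -2.26 (limma adjusted p = 0.0502). JUN lost its call under 12 alternatives (limma, edgeR or DESeq2 adjusted p 0.0618 to 0.105), and JUNB and DUSP4 between LNCaP95 and LNCaP under 10 and 9 (limma adjusted p 0.0504 to 0.091 and 0.0533 to 0.107).

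Ranked over the 9 groups, EGR1 was highest in 22Rv1 with DMSO and lowest in LNCaP95 with 500 nM, and the only neighbours in that order whose libraries did not overlap were the first pair, 22Rv1 with DMSO and 22Rv1 with 100 nM. For FOS the 3 groups of 22Rv1 came first, those of LNCaP next and those of LNCaP95 last. For DUSP4 the lines came in the order LNCaP, 22Rv1 and LNCaP95, and each line's libraries were clear of the next line's. For DUSP6 and SPRY2 the 3 groups of 22Rv1 were apart from the other 6 groups, whose neighbours overlapped. Over the 9 group means of log2(value + 1), the genes most like EGR1 among 11655 compared were U2AF1 (Pearson r 0.991), SNRPB (0.988), SRRM1 (0.986), HIRIP3 (0.986) and HMGB1 (0.985). Those most like DUSP6 were SPTBN1 (0.999), ME3 (0.997), TYW1B (0.995), KRT7 (0.994) and ALDH3A2 (0.993). These points are means of only 9 groups from 3 lines, and genes that separate 22Rv1 from the other lines score high by that alone.

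Among other immediate early genes the calls ran in both directions. Of all genes tested at 500 nM, limma called 28.2% higher and 24.1% lower in LNCaP95, and 3.47% higher and 3.5% lower in 22Rv1. In LNCaP it called 11% higher and 9.83% lower. The counts of every list below are to be read beside these shares. Of 18 other immediate early transcription factors, 1 of 16 tested was higher and 3 lower in 22Rv1 at 500 nM, among them ATF3 (-0.54 ± 0.13), MYC (-0.46 ± 0.10) and MAFF (0.67 ± 0.16), with a median log2 change of -0.17, against -0.002 over all genes. In LNCaP95, 5 of 14 tested were higher and 3 lower (median 0.48, against 0.032 over all genes). There ATF3, a stress-induced partner of JUN proteins, rose by 1.51 ± 0.11 and JUND by 0.92 ± 0.073, while the nuclear receptor NR4A2 was at -1.37 ± 0.12. In LNCaP, 3 of 12 tested were higher and 1 lower, with KLF6 at 1.66 ± 0.15, FOSL2, a FOS relative, at 0.66 ± 0.13 and MYC at -0.58 ± 0.091. Of 20 other rapidly induced genes, 1 of 20 tested was higher and 3 lower in 22Rv1, with TRIB1 at -0.93 ± 0.18 and CTGF at -0.80 ± 0.15. In LNCaP95 4 of 17 tested were higher and 4 lower, and in LNCaP 4 of 15 tested were higher and 2 lower. BTG1, an antiproliferative gene, rose by 1.39 ± 0.094 in LNCaP95 and was at -1.57 ± 0.13 in LNCaP.

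Of 8 other phosphatases of MAP kinases, 4 of 8 tested were higher and 0 lower in LNCaP, led by DUSP10, which acts on p38 and JNK (1.68 ± 0.20). DUSP10 also rose in LNCaP95 (1.07 ± 0.12), where 3 of 8 tested were higher and 4 lower and 52.3% of all genes were called. The falls there included DUSP5, a nuclear ERK phosphatase (-1.59 ± 0.21), and DUSP9 (-1.23 ± 0.13). In 22Rv1 1 of 8 tested was higher and 1 lower, with DUSP16, a JNK phosphatase, at 0.57 ± 0.12. Of 10 other feedback inhibitors of RAS and receptors, 0 of 9 tested were higher and 0 lower in 22Rv1, 3 of 9 tested were higher and 4 lower in LNCaP95 and 0 of 8 tested were higher and 2 lower in LNCaP. ERRFI1, which inhibits the EGF receptor, rose in LNCaP95 (0.81 ± 0.073), and SPRED1, a Sprouty relative, was at -0.74 ± 0.15 in LNCaP.

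Among 10 ERK-responsive output genes, ETV4 (0.93 ± 0.13) and ETV5 (1.40 ± 0.18), ETS factors that follow ERK activity in several tissues, rose in 22Rv1, where 2 of 8 tested were higher and 0 lower. In LNCaP95 1 of 7 tested was higher and 3 lower, with cyclin D1 (CCND1, -0.93 ± 0.11) and EPHA2 (-0.81 ± 0.10), and in LNCaP 0 of 6 tested were higher and 1 lower, with ETV1 (-1.20 ± 0.25). Of 22 genes of the RAS, RAF, MEK and ERK core, 1 of 21 tested was higher and 0 lower in 22Rv1, 4 of 22 tested were higher and 5 lower in LNCaP95 and 0 of 22 tested were higher and 2 lower in LNCaP. RPS6KA2, an ERK-activated kinase, was called in each line, at 0.86 ± 0.076 in LNCaP95, 1.13 ± 0.22 in 22Rv1 and -0.47 ± 0.088 in LNCaP, and SRF, the factor that binds CArG boxes, was at -0.65 ± 0.092 in LNCaP95. Of 12 genes of the JNK and p38 arms, 1 of 11 tested was higher and 3 lower in LNCaP95, with MAP2K3 at -0.50 ± 0.069, 0 of 11 tested were higher and 1 lower in 22Rv1, MAP2K6 at -0.87 ± 0.14, and 1 of 11 tested was higher and 1 lower in LNCaP. Of 21 growth factor ligands and receptors, 5 of 14 tested were higher and 2 lower in LNCaP95, 0 of 15 tested were higher and 1 lower in 22Rv1 and 3 of 14 tested were higher and 0 lower in LNCaP. Of all genes tested, limma called 52.3% in LNCaP95, 6.97% in 22Rv1 and 20.8% in LNCaP. The higher ligands and receptors in LNCaP were FGFR3 (2.84 ± 0.38), HBEGF (1.25 ± 0.21) and MET (0.83 ± 0.22). In LNCaP95 FGFR2 (1.04 ± 0.14) and EGF (0.74 ± 0.12) rose. FGFR4 fell in LNCaP95 (-0.86 ± 0.12) and 22Rv1 (-0.68 ± 0.13).

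**Figure D5:**
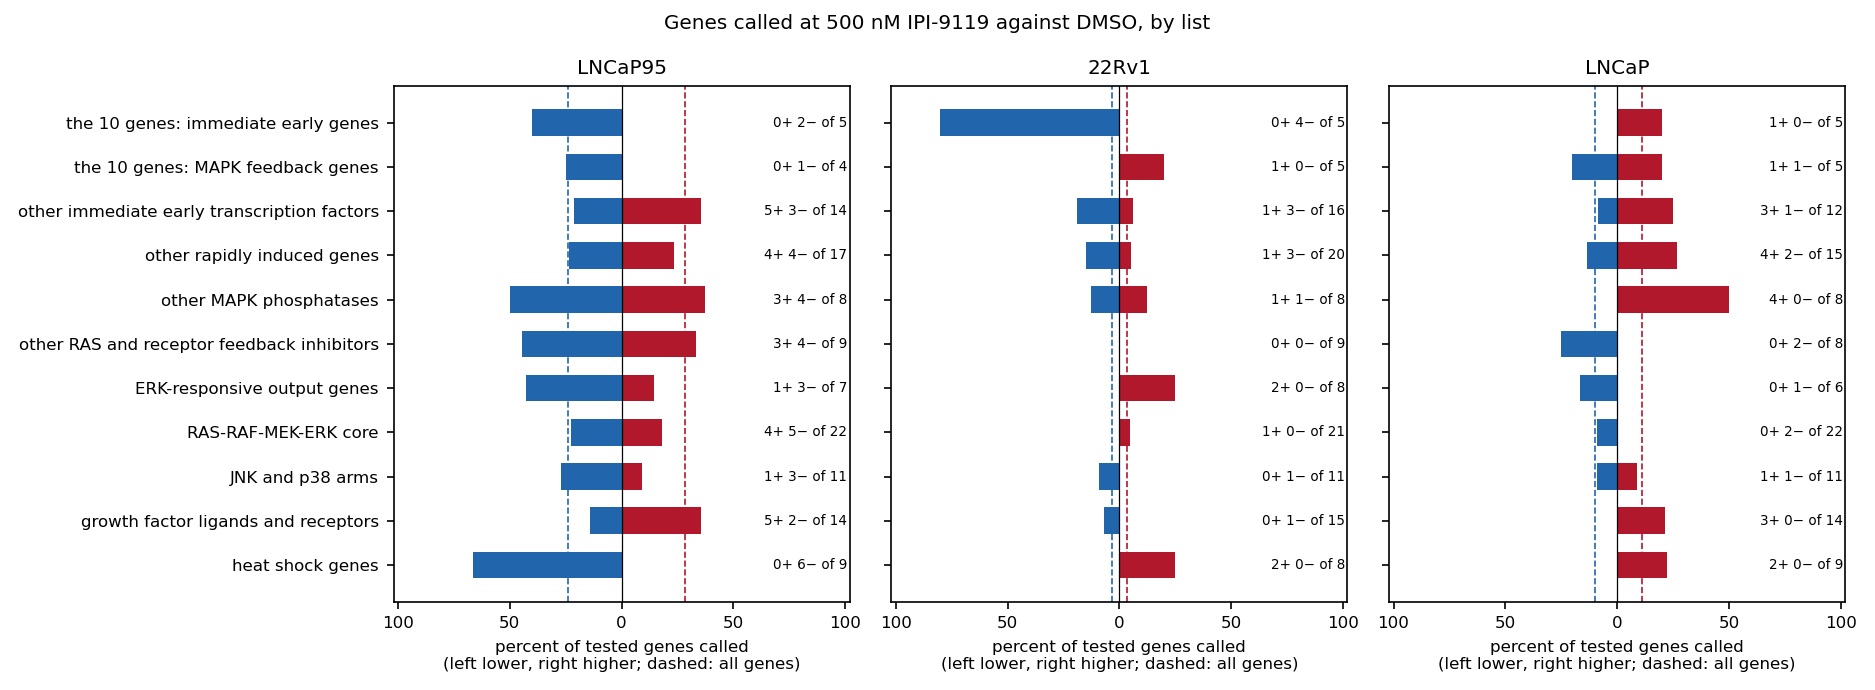
Percent of the tested genes of each list that limma called higher (right, red) or lower (left, blue) at 500 nM IPI-9119 against DMSO, by line, with counts of genes higher (+) and lower (−) at the right. Dashed lines give the same percent over all genes. In 22Rv1, 4 of 5 immediate early members are lower where 3.5% of all genes are.

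The part of heat shock genes, luminal and fibroblast markers, mitochondrial reads and depth, given above line by line, in the members' changes was not tested.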

How the data were processed

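Poly(A) RNA of 27 libraries was sequenced with a directional kit, per the labels' protocols. The authors deposited 1 table of normalised counts, read here as a signal in units set by per-library size factors. The submitters' processing notes name STAR 2.3.1z4, featureCounts, DESeq and build hg19. The sources used here do not state whether reads were counted by strand. In all 27 libraries 100% of values were whole multiples of the value of 1 read (0.757 to 1.39, tolerance 1e-06), so reads were recovered, 14757874 to 26578881 per library.

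The main test was limma 3.58.1 (R 4.3.3) with an intensity trend on log2(value + 1), two-sided, on genes with 10 or more in at least 3 libraries. A fold change on that scale understates the change of low genes. Doses were compared within the 9 libraries of a line, without a term for replicate number. Differences of effects between lines and the DMSO levels used all 27 libraries. Adjusted p-values (Benjamini-Hochberg) run over all genes tested. On recovered reads edgeR 4.0.16 called 6707, 962 and 2705 genes, and DESeq2 1.42.0 called 6556, 1376 and 3005, at 500 nM in LNCaP95, 22Rv1 and LNCaP, against 6715, 946 and 2671 by limma. The scripts were tested on simulated data with planted changes.

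Replicate numbers come from the labels. Deviations from group means of same-numbered libraries correlated over 0.1 in all 3 pairs between 500 nM and DMSO in LNCaP95 (0.332, 0.163 and 0.207) and in LNCaP (0.316, 0.22 and 0.131) and between 100 nM and DMSO in LNCaP95 (0.296, 0.128 and 0.264), so there the numbers are taken to pair the libraries. They did not in 22Rv1, with 0.205, 0.143 and 0.0713 between 500 nM and DMSO and -0.0426, -0.291 and 0.387 between 100 nM and DMSO. Nor did they between 100 nM and DMSO in LNCaP (0.0823, -0.00305 and 0.00364). In these comparisons the numbers were not taken to pair the libraries. No 2 libraries of a group agreed within sampling noise. Other alternatives were a replicate block, a pseudocount of 5, no filter, equal totals, all 27 libraries in 1 fit, only the DMSO libraries fitted, LNCaP replicates 2 and 3 only, and each library left out.

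All 10 genes are named, and of each pathway list up to 3 called genes with the smallest p per line at 500 nM. Patterns like that of EGR1 and of DUSP6 were ranked among genes with a mean of 50 or more. The genes, lists and tests were chosen with earlier results of these data known. Levels per kilobase used GENCODE v29 transcript lengths, and the promoters are RefSeq's.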

Additional observations from a re-analysis of the deposited data

Results flagged for a closer look

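The 500 nM effects of 6 genes differed between lines by a test of the difference itself (limma over all 27 libraries), 8 differences in all. For EGR1 the difference of LNCaP95 minus LNCaP was -3.30, with effects of -3.11 in LNCaP95 and 0.19 in LNCaP. For IER2 it was -0.52 in the same pair, with -0.57 in LNCaP95 and -0.05 in LNCaP. For JUNB it was -0.52 between LNCaP95 (0.14) and LNCaP (0.66), and -0.88 between 22Rv1 (-0.22) and LNCaP. JUN differed by -1.16 between 22Rv1 (-0.89) and LNCaP (0.27). DUSP4 differed between all pairs of lines: by 0.81 for LNCaP95 (-1.12) minus LNCaP (-1.93), by 2.75 for 22Rv1 (0.82) minus LNCaP, and by -1.94 for LNCaP95 minus 22Rv1. The JUN, JUNB (LNCaP95 minus LNCaP), EGR1 and DUSP4 (LNCaP95 minus LNCaP) differences lost their calls under 12, 10, 1 and 9 alternatives. The remaining 4 differences passed under every alternative that was run. Biological or technical sources of these differences were not tested.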

How the results depend on the processing

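Of the 22 drug effects called, 12 kept their direction and call under every alternative that gave a value, among them EGR1 and IER2 in LNCaP95 and JUN in 22Rv1 at both doses and DUSP4 and JUNB in LNCaP. SPRY4 in LNCaP at 500 nM is among the 12 too, but it passed the filter only through its 500 nM libraries. Over all 22, 258 of 287 alternative values kept the call, 29 fell short of it and 0 changed direction. Of 8 effect differences called, 119 of 151 alternative values kept the call, and of 23 DMSO differences called 287 of 306 did. The DMSO differences of DUSP6 and SPRY4 passed the filter only through 22Rv1. The count of members called was 3, against 5, in 22Rv1 at 500 nM and at 100 nM with all 27 libraries in 1 fit. With the replicate block it was 5 in LNCaP95 at 100 nM (7840 of all genes called, against 6713) and 6 for 22Rv1 minus LNCaP (2191 of all genes, against 1683), against 3 each. In that difference DUSP1 (limma adjusted p = 0.00546), FOS (0.0342) and IER2 (0.0426) were added. The replicate numbers were not taken to pair the libraries of 22Rv1 there. In 22Rv1 the block added DUSP1 at both doses (limma adjusted p = 0.0112 at 500 nM, 0.0105 at 100 nM) and SPRY4 at 500 nM (0.0486). The block's further changes of a call, FOS and JUN in LNCaP95, are given with those results. With LNCaP replicates 2 and 3 only, 1 member was called between 500 nM and 100 nM, against 0, and 5 between the DMSO libraries of LNCaP95 and LNCaP, against 3. Equal totals also gave 5 in that last comparison.

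Leaving out 1 library gave 3 to 4 members called in 22Rv1 at 500 nM and 3 to 5 at 100 nM, 2 to 4 for LNCaP95 minus LNCaP and 1 to 2 for LNCaP95 minus 22Rv1. Over all genes it gave 1475 to 3891 calls in LNCaP at 500 nM (against 2671) and 1736 to 4617 at 100 nM (against 3250), the highest of each without DMSO replicate 1. In 22Rv1 it gave 384 to 697 at 500 nM (against 946) and 261 to 1184 at 100 nM (against 889). For the dose step in LNCaP, limma called 0 with the block, 37 with all 27 libraries in 1 fit and 755 with replicates 2 and 3 only, DESeq2 called 93, and leaving out 1 library gave 0 to 67, against 1.

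Changes of direction touched only values that had not passed. In LNCaP at 500 nM, EGR1 was at -0.51 with edgeR, -0.49 with DESeq2 and -0.62 with replicates 2 and 3 only, JUN at -0.065 with replicates 2 and 3 only and IER2 at 0.021 at equal totals. In LNCaP at 100 nM, FOS was at -0.72 with edgeR, -0.70 with DESeq2 and -0.60 with replicates 2 and 3 only, and with those replicates EGR1 was at -0.47 and DUSP1 at -0.18. FOS in LNCaP95 minus LNCaP was at 0.25 with edgeR and 0.31 with DESeq2. Leaving out 1 library gave ranges across 0. In LNCaP at 500 nM these were -0.85 to 1.09 for EGR1, -1.32 to 0.72 for FOS and -0.19 to 0.59 for JUN. In LNCaP at 100 nM they were -0.16 to 1.78 for EGR1, -0.82 to 1.22 for FOS, -0.56 to 0.22 for JUN and -0.14 to 0.39 for DUSP1. In LNCaP95 they were -0.30 to 0.18 for JUN and -0.31 to 0.29 for DUSP1 at 500 nM, and -0.41 to 0.082 and -0.44 to 0.20 at 100 nM. For LNCaP95 minus LNCaP they were -1.41 to 0.62 for FOS and -0.72 to 0.054 for JUN, and for LNCaP95 minus 22Rv1 -0.19 to 0.0067 for IER2. Fewer libraries are fitted when 1 is left out, and other causes were not tested. Depth limits DUSP6 and SPRY4 in LNCaP and LNCaP95, where SPRY4 gave no value without a 500 nM library of LNCaP and many libraries hold under 20 reads of either gene.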
